A study of Caenorhabditis elegans with 2 samples.

Results

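The str genes are a family of *C. elegans* chemoreceptor genes, followed here through the binding map of AHR-1, a bHLH-PAS transcription factor and the worm counterpart of the mammalian aryl hydrocarbon receptor (AHR). The members were chosen by symbol: 193 of the 19973 protein-coding genes on chromosomes I to V and X in the Ensembl annotation of WBcel235 have a symbol that starts with str-. Chromatin immunoprecipitation sequencing (ChIP-seq) of AHR-1 was done in hermaphrodite late embryos 3.5 h after egg bleaching, with 2 biological replicates of 1 group and no second condition. All worms were of strain OP562, which carries unc-119(tm4063) III, a mutation in a gene of neural development, and wgIs562, a stably expressed transgene for AHR-1 with a C-terminal GFP-FLAG tag. They were whole organisms. The labels disagree on the antibody: a description says that it was against GFP, which would pull down the tagged AHR-1, while the antibody field names ahr-1, so whether native AHR-1 was measured too is not settled here. The promoter of the transgene and its level relative to native AHR-1 were not given in the sources used here, nor was read depth, and the worms of a sample were pooled, so neurons and all other tissues were measured together.

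The str genes encode G protein-coupled receptors of the chemosensory neurons, and each is usually active in only a few of these cells. The best known relative outside the str symbols is odr-10, which encodes the receptor for diacetyl in the AWA neurons. Within the family, str-1 marks the AWB neurons, str-2 marks one cell of the AWC pair, str-3 marks the ASI neurons, and str-217 is needed for the response of worms to the repellent DEET. AHR-1 itself acts with its partner AHA-1 on DNA that holds the core GCGTG, and it is known in worms for its part in the fates of oxygen-sensing and touch neurons. Most of the family lies on chromosome V, where chemoreceptor genes have multiplied in the arms: 157 of the 193 genes are on V, 27 on IV, 5 on X, 2 on III and 1 each on I and II. Of the 193, 99 have another str gene as the next coding gene on at least one side, and 29 have one on both sides.

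No str gene had a region of the IDR list near its 5′ end. The pooled regions that were present there all had a lower signal than the weakest IDR region. This is no second finding: the weakest IDR region ranked 479 by signal in the pooled list, so regions outside the IDR list lie below it. The IDR list holds the 479 regions that passed a threshold on how alike regions rank in the replicates, out of 13858 regions called on both replicates pooled. The pooled list and the replicate lists come before that threshold and include background regions. A region was given to a gene when its summit lay within a window around the 5′ end of any of its coding transcripts, which reached 1500 bp upstream and 500 bp downstream. An IDR summit lay in that window at 0 of 193 str genes, against 20 of 2268 other coding genes on the arms of chromosome V (0.882%) and 516 of all 19973 coding genes (2.58%). A summit of the pooled list lay in the window of 30 str genes (15.5%), against 614 of the other genes on the V arms (27.1%) and 5974 of all coding genes (29.9%). Windows with a region in each replicate, the regions overlapping by at least 1 bp, numbered 24 for the str genes (12.4%), against 392 for the other genes on the V arms (17.3%) and 4023 for all coding genes (20.1%). The str share was the lowest of the 3 each time. IDR summits were rare at the other genes on the V arms too. They were less rare at the other genes on V outside the arms (58 of 2569, 2.26%), where 55 of the str genes lie. The count of 0 was not tested and is not read as a difference of the family. The same lists were used to choose what is described here, so the shares are given as descriptions without a test. The genes are not replicates, since neighbours can share a region.

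**Figure D1:**
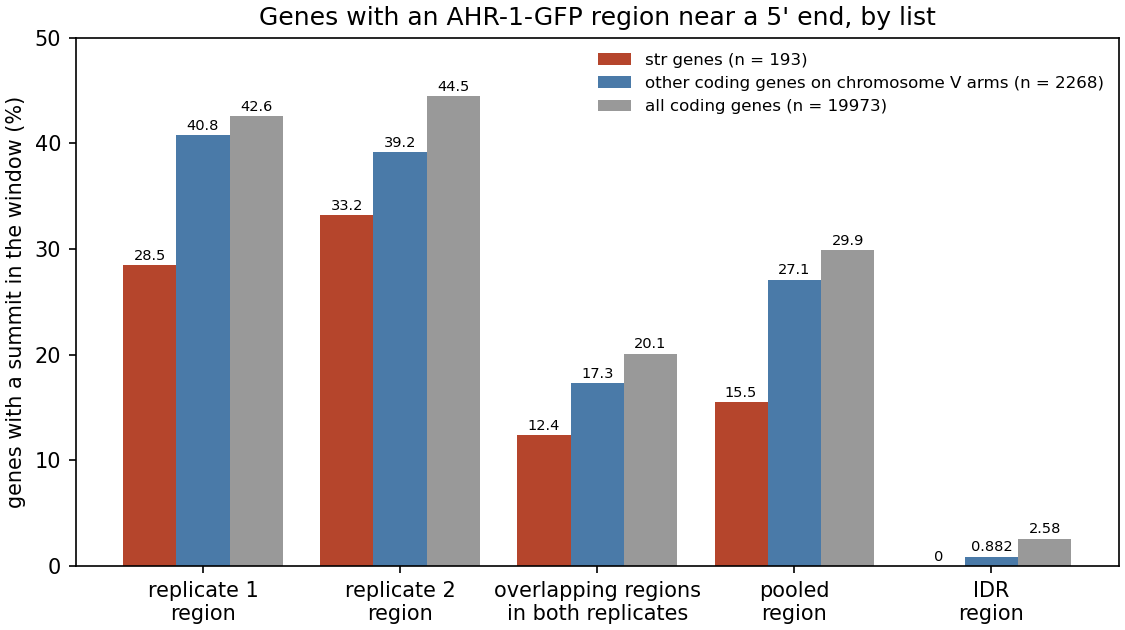
Percentage of genes with a region summit in the window (1500 bp upstream to 500 bp downstream of a coding 5′ end) in each deposited list, for the 193 str genes, the 2268 other coding genes on the arms of chromosome V and all 19973 coding genes; bars carry their values and no error, since genes are not replicates. The str bar is the lowest in each list, and is at 0 for the IDR list.

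By position, the str shares differed from those of their neighbours to unequal extents. A pooled summit lay at 17 of the 102 str genes on the arms of V (16.7%), 9 of the 55 elsewhere on V (16.4%) and 4 of the 36 on other chromosomes (11.1%). Among the other 2569 coding genes on V outside the arms, 549 had a pooled summit (21.4%), which is nearer to the str share there than the 27.1% on the arms is to the str share on the arms. Outside the arms, overlapping regions of both replicates lay at 14.5% of the str genes and 13.2% of the other genes, and a summit of replicate 1 lay at 32.7% of each. A summit of replicate 2 lay at 25.5% of the str genes outside the arms and 35.9% of the other genes there. An IDR summit lay at 0 of the 55 str genes outside the arms and at 58 of the other 2569 genes there (2.26%). Outside the arms the lower str share was thus found in the pooled list, in replicate 2 and in the IDR list. It was not found in replicate 1 or in the overlapping regions of both replicates. The arms are taken as the outer 25% of the chromosome at each end, up to position 5231045 and from 15693136. Among the other coding genes on the V arms, 473 were counted by symbol as chemoreceptor genes of other families. A pooled summit lay at 83 of these (17.5%) and at 531 of the remaining 1795 genes (29.6%). In the pooled list the share at these chemoreceptor genes was near the 16.7% of the str genes on the arms. Overlapping regions of both replicates lay at 11.8% of the str genes on the arms, against 8.88% of these chemoreceptor genes. A summit of replicate 2 lay at 35.3% against 28.3%, while replicate 1 went the other way, at 27.5% against 30.2%. Of the family, 100 of 193 genes (51.8%) had no summit in the window in the pooled list or in that of either replicate, against 959 of the 2268 other genes on the V arms (42.3%) and 7742 of all coding genes (38.8%).

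The 30 genes held 33 pooled regions, and their summit sequences show how mixed these are. The reference sequence 30 bases to each side of 6 summits is given here, from the RefSeq assembly of build WBcel235 (ce11) and read 5′ to 3′ on the strand of the str gene, with GCGTG, or CACGC on the other strand, in capitals. The first belongs to the strongest region, the next 3 to the regions closest upstream of a str 5′ end, and the last 2 are the summits with the core inside these bases.
str-198, chrV:16047254-16047314, plus strand: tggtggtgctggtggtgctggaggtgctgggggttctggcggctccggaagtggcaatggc
str-89, chrV:17668769-17668829, plus strand: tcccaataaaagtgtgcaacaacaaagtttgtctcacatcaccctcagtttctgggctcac
str-236, chrV:1528127-1528187, minus strand: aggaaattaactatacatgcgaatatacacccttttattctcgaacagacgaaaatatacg
str-187, chrIV:17265479-17265539, plus strand: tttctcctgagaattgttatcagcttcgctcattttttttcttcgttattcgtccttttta
str-149, chrV:16573827-16573887, plus strand: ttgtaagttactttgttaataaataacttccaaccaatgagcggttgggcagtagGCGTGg
str-40, chrV:3068672-3068732, minus strand: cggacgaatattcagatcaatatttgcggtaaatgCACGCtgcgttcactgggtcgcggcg
The str-198 sequence is a run of short G-rich repeats in the coding sequence of a neighbour, while those of str-89, str-236 and str-187 hold neither form of the core.

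The strongest region of the family lay upstream of str-198. Its signal, a value given by the authors' peak caller on a scale of its own in each list, was 49.8 in the pooled list at V 16047062 to 16047505, rank 1213 of 13858. The replicate regions it overlapped had a signal of 28.5 in replicate 1 (rank 2598) and 19.4 in replicate 2 (rank 2666). Its summit was 524 bp upstream of str-198, but inside the coding sequence of ZK285.2 and 411 bp into that gene, whose 5′ end was the nearest. The window of str-198 also held a region that overlaps the first, with a signal of 27.1 at 322 bp upstream. One more region, 1458 bp upstream of str-198, had a signal of 38.2 and lay nearer to T10C6.15 than to any str gene, and it overlapped a region of replicate 1 (27.1) and none of replicate 2.

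The next strongest members also lay at other features or well away from the str 5′ end. The region of str-173 (signal 41.8, IV 4861600 to 4862043) had its summit 49 bp downstream of the 5′ end, in the annotated 5′ UTR and within 250 bp of a tRNA gene. It had 28.9 in replicate 1 and 13.3 in replicate 2, and was the only one of the 33 regions near a tRNA, snoRNA, snRNA, miRNA or rRNA gene. The region of str-256 (signal 39.6, V 502366 to 502809) lay 1258 bp upstream, in an intron of T01G6.10, with 23.9 in replicate 1 and 12.8 in replicate 2. The other region of str-256 at 1467 bp upstream (signal 29.2) overlapped it and rested on the same replicate regions.

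The regions closest upstream of a str 5′ end were those of str-89, str-236 and str-187. The region at V 17668577 to 17669020 lay 32 bp upstream of str-89, with a signal of 36.8 in the pooled list, 24.7 in replicate 1 and 13.8 in replicate 2. The region 72 bp upstream of str-236 (V 1527935 to 1528378) had 36.7 in the pooled list and 27.3 in replicate 1, and overlapped no region of replicate 2. The region 70 bp upstream of str-187 (IV 17265287 to 17265730) had 33.6 in the pooled list, 17.6 in replicate 1 and 14.5 in replicate 2. They ranked 4358 (str-89), 4400 (str-236) and 6308 (str-187) of 13858 in the pooled list, whose median signal was 32.8 and upper quartile 39.0, and all 3 were intergenic.

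Regions inside a str gene made up 14 of the 33. They included 9 in coding sequence, 4 in introns and 1 in a 5′ UTR, and 3 of the 14 were in a neighbouring str gene (str-129 for str-130, str-261 for str-246 and str-82 for str-83). The region of str-52, 412 bp downstream of the 5′ end in coding sequence (signal 36.5, V 2145510 to 2145953), was the highest-ranked of the family in either replicate, at 869 of 23313 in replicate 2 (signal 25.6), but was 9677 of 22949 in replicate 1 (20.7). The region of str-204, 58 bp downstream in coding sequence (signal 34.6), was the reverse, with 32.5 in replicate 1 (rank 1425) and no region in replicate 2. That of str-149 lay in an intron 389 bp downstream, with 36.6 in the pooled list, 25.7 in replicate 1 and 12.6 in replicate 2. For str-52 the ranks in the replicates were thus far apart, and str-204 had a rank in replicate 1 alone. Ranks were far apart at other members too, such as str-149 (4134 in replicate 1 and 13292 in replicate 2).

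The other regions lay in neighbouring genes or between genes. Of the 33 summits, 8 were inside genes outside the family, of which 3 were in coding sequence, 4 in introns and 1 in a 3′ UTR, and 11 were intergenic. The region 1148 bp upstream of str-165 was in the coding sequence of nrf-5, a lipid-binding protein gene, with a signal of 34.2 in the pooled list, 19.8 in replicate 1 and 11.6 in replicate 2. That 1045 bp upstream of str-244 was in an intron of srt-15, a chemoreceptor gene of another family, with 36.5 in the pooled list, 20.9 in replicate 1 and 15.4 in replicate 2. The region of str-246, 612 bp upstream, was in an intron of its neighbour str-261 and is among the 14 inside str genes, with 36.6 in the pooled list, 23.8 in replicate 1 and 10.3 in replicate 2. These 3 regions were each present in both replicates and each nearest to the str 5′ end named.

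Among the intergenic regions, that 1397 bp upstream of str-135 had 34.6 in the pooled list, 19.5 in replicate 1 and 18.8 in replicate 2 (rank 3004). That 664 bp upstream of str-87 had 33.9 in the pooled list, 17.5 in replicate 1 and 18.8 in replicate 2 (rank 3070). The region of str-113 had 33.99 in the pooled list, 17.3 in replicate 1 and 12.9 in replicate 2, and lay 489 bp downstream of the later of 2 annotated 5′ ends, past the 3′ end of the gene. These are the 15 str genes of highest pooled signal, and the strongest regions of the other 15 had signals from 27.3 to 33.4. Of those, str-175, str-111, str-232 and str-209 had an intergenic region upstream of the 5′ end, with signals from 28.7 to 33.4, each present in both replicates. str-66, str-205, str-118, str-116 and str-139 had one in their own coding sequence, with signals from 27.9 to 31.7, of which those of str-66 and str-116 were present in both replicates. That of str-40, in an intron of the gene, was the weakest best region of the family (27.3) and was present in replicate 1 alone.

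**Figure D2:**
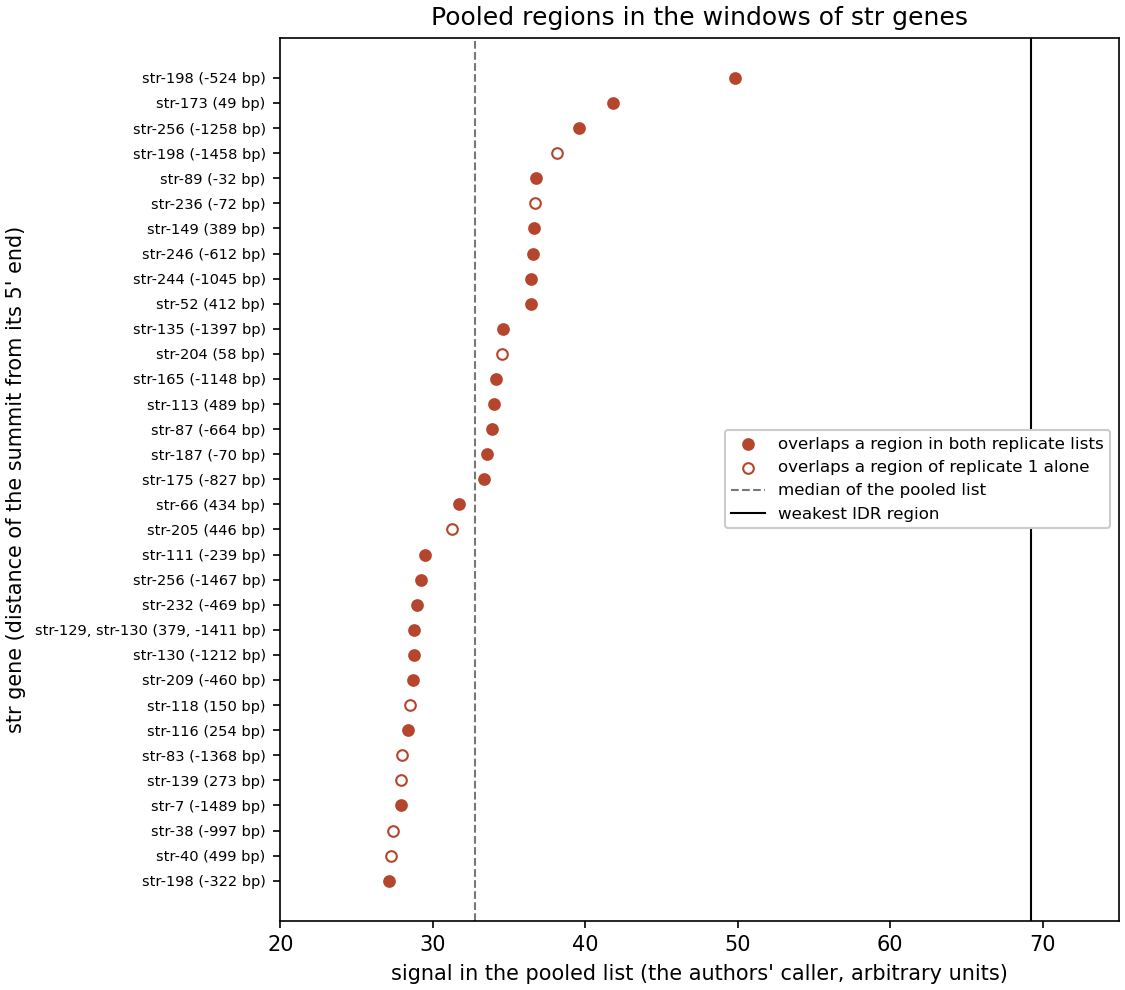
Signal in the pooled list of each of the 33 regions in the windows of str genes (x axis, arbitrary units of the authors' caller), ordered from strongest to weakest, with the distance of the summit from the 5′ end in bp (negative upstream). The dashed line is the median of the pooled list. Filled points overlap regions of both replicates and open points a region of replicate 1 alone; all points lie between 27.1 and 49.8, left of the weakest IDR region at 69.2.

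The family's regions, none of them in the IDR list, ended well short of its lowest signal but were typical of the pooled list as a whole. Their signals ran from 27.1 to 49.8 (median 33.4), against a median of 32.7 and a maximum of 233.0 for the 634 regions in the windows of the other genes on the V arms, and 33.2 and 1026 for the 6147 regions in the windows of all coding genes. The −log10 q values of the 33 ran from 0.0212 to 0.675, against a median of 0.0933 in the pooled list and 2.87 in the IDR list. By this measure each of the 33 taken alone is a call of low confidence, and some may be background. Above the median rank of the pooled list were 17 of the 33 (51.5%), against 49.1% at the other genes on the V arms and 52.1% at all coding genes. All 33 had the usual width of the list, 444 bp, and 3 pairs overlapped each other, so they mark 30 separate places.

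Most pooled regions at str genes overlapped regions of both replicates, as in the other sets, while many str genes had a summit in 1 replicate list alone. Of the 33 regions, 24 overlapped a region in both replicates (72.7%), against 56.8% at the other genes on the V arms and 57.6% at all coding genes, and 9 overlapped a region of replicate 1 alone. The 24 include overlapping regions at str-198, str-256 and str-130 that rested on the same replicate regions, which are thus counted repeatedly. Such overlaps were not merged in any set. The pooled list was made from both replicates, so these shares are no independent measure of repeatability. The list of replicate 1 had a summit in the windows of 55 str genes (28.5%), against 40.8% of the other genes on the V arms and 42.6% of all coding genes. Its signals at str genes ran from 15.4 to 32.5, against a list median of 19.7. The list of replicate 2 had one at 64 str genes (33.2%), against 39.2% and 44.5% in the same order of sets. Its signals at str genes ran from 10.1 to 25.6, against a list median of 13.1. Both lists marked 27 str genes, 28 were marked in replicate 1 alone and 37 in replicate 2 alone. That split is not given here for other genes, so it is not read as a trait of the family. Of the 24 genes with overlapping regions of both replicates, 21 also had a pooled summit, and str-23, str-41 and str-193 did not.

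The pooled summits showed no crowding just upstream of str genes. In the 500 bp before the 5′ end a summit lay at 7 of 193 str genes (3.63%), against 9.57% of the other genes on the V arms and 12.2% of all coding genes, whose highest shares fell in that bin. In the first 500 bp of the gene a summit lay at 12 str genes (6.22%), the highest bin of the family, against 7.63% and 8.1%. Between 1500 and 1000 bp upstream the shares were 4.15%, 7.67% and 7.16% in the same order of sets. Of the 34 pairs of a str gene and a region, 22 had the summit upstream of the 5′ end. Most of the window lies upstream by its definition, so no preference is read from this count.

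**Figure D3:**
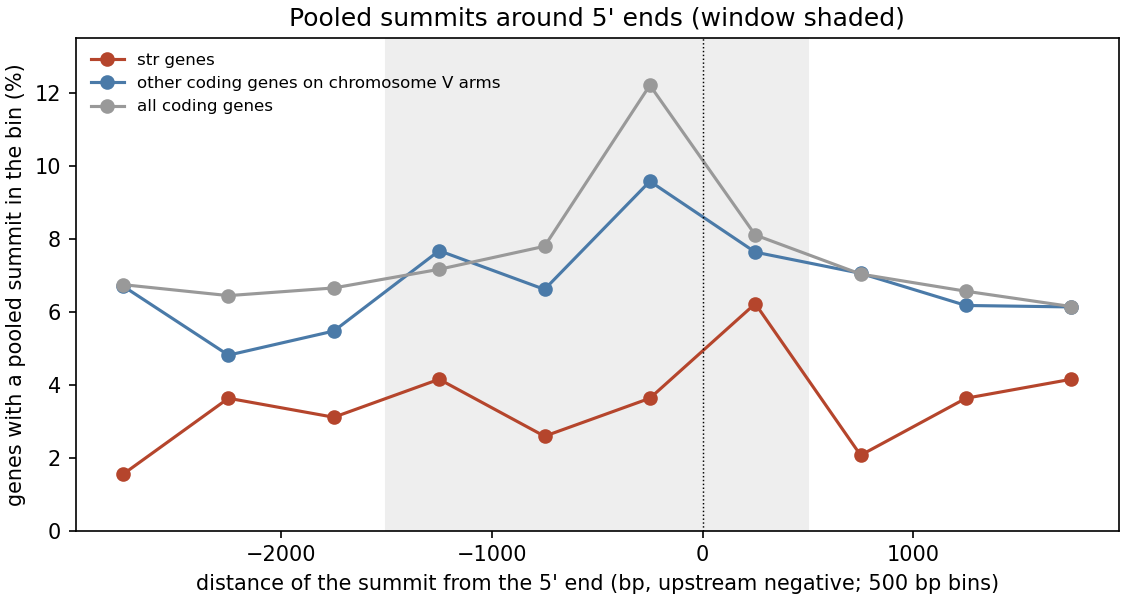
Percentage of genes with a pooled summit in each 500 bp bin around the coding 5′ end (x axis, bp, upstream negative), for str genes, other coding genes on the arms of chromosome V and all coding genes, with the window of the rule shaded. In the bin just upstream of the 5′ end the str genes stand at 3.63% and all coding genes at 12.2%.

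The core of the AHR response element lay near a minority of the summits at str genes and in both comparison sets. GCGTG on either strand lay within 100 bp of 4 of the 33 summits (12.1%), those of str-256 (1258 bp upstream), str-149, str-116 and str-40. The shares were 17.4% of the summits at other genes on the V arms and 18.8% of those at all coding genes. With 4 summits, no difference of the family is read from these shares. In the whole windows of 2001 bp, GCGTG was present at 106 of 193 str genes (54.9%), against 66.1% for each of the other sets. The str windows were also poorer in G and C, with a median of 33.6% against 35.4% at the other genes on the V arms and 35.3% at all coding genes. The part of base composition in the motif counts was not tested. A match describes the sequence only and is not a binding site.

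Repeated sequence in the windows was measured, since no source used here says how reads that map to several places were handled in these lists. The median window of a str gene had 99.6% of its 32-base words at a single place in the genome, against 97.8% for the other genes on the V arms and 99.9% for all coding genes. In some str windows, such as those of str-76, str-119 and str-265, this share was 0.0%. The symbols str-257, str-258 and str-267 are each shared by separate gene entries, which are counted singly and also stand at 0.0%. None of these genes had a summit in the window in any list. Windows with under 90% of such words numbered 38 of 193 (19.7%), against 23.1% and 16.4%. Among the windows with 90% or more, a pooled summit lay at 25 of 155 str genes (16.1%), against 29.4% of the other genes on the V arms and 31.8% of all coding genes. The shares in windows of mostly single-copy sequence were thus in the same order as in all windows.

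The strong regions nearest to str genes lay outside the window. The median distance from a str 5′ end to the nearest IDR summit was 185277 bp, and 4 of the 193 genes had one within 5000 bp. These 2 values are not given here for other genes, so they are not read as a trait of the family. The closest were at str-56, where an IDR region with a signal of 321.0 lay 1407 bp downstream of the 5′ end, past the gene and at the snoRNA gene T06C12.16, and another with 80.1 lay 1607 bp downstream. The same 2 regions lay 3324 and 3524 bp downstream of str-57. On the upstream side the IDR summits at 2316 bp (str-182, signal 76.6) and 4435 bp (str-171, signal 87.8) were the nearest, and the next were 5995 bp upstream of str-71 (89.1, at tRNA genes) and 6413 bp downstream of str-206 (86.1). Just inside the upstream edge of the window were pooled summits at 1489 bp (str-7, signal 27.9, in an intron of cth-1, a cystathionine gamma-lyase gene), 1467 bp (str-256), 1458 bp (str-198), 1411 bp (str-130, 28.8) and 1397 bp (str-135). Just outside it were summits at 1534 bp (str-200, 27.6), 1561 bp (str-246, 33.6), 1612 bp (str-150, 29.6), 1856 bp (str-115, 28.4) and 1933 bp (str-238, 33.6). At the downstream edge, summits at 499 bp (str-40, 27.3), 489 bp (str-113), 446 bp (str-205, 31.3), 434 bp (str-66, 31.7) and 412 bp (str-52) were inside. Those at 578 bp (str-129, 28.8), 901 bp (str-230, 27.1), 908 bp (str-30, 37.8), 919 bp (str-249, 30.8) and 1116 bp (str-208, 30.8) were outside. None of these pooled summits at the edges reached the lowest IDR signal, as follows from their absence from the IDR list.

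The members picked for their known neurons or roles had no pooled summit in the window, like most str genes and most coding genes. Only 15.5% of str genes and 29.9% of all coding genes had one, so its lack is not particular to these members. str-1, str-2 and str-44 had no summit in the window in any list, as did 51.8% of str genes and 38.8% of all coding genes. str-3 and str-199 had one in replicate 2 alone, with a signal of 19.3 at 1101 bp upstream of str-3 and 14.9 at 518 bp upstream of str-199. str-217 had one in replicate 1 alone, with a signal of 15.5 at 364 bp downstream. odr-10, on X, likewise had one in replicate 1 alone, and its nearest pooled summit lay 1920 bp downstream of its 5′ end (signal 27.5). Each of these genes is active in few cells, and whole embryos were sampled, so binding in a few cells and no binding cannot be told apart here.

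The shares of genes with a pooled region varied among the other chemoreceptor families, and a few families had IDR regions. The other families counted here in the same superfamily (srd, srh, sri and srj, with odr-10) had a pooled summit at 64 of 388 genes (16.5%), against 15.5% for str. Families were set by a fixed list of symbols, so chemoreceptor genes under other symbols are not counted in any of them. The Sra superfamily had one at 25 of 124 (20.2%), the Srg superfamily at 50 of 309 (16.2%), and the remaining families at 42 of 289 (14.5%). Single families ran from 7.69% (srj and sru) and 8.57% (sra) to 25.9% (sre) and 26.1% (srab), so the str share lay within their range, and all of them lay below the 29.9% of all coding genes. Overlapping regions of both replicates lay at 12.4% of the str genes, against 8.76% in the other families of the same superfamily, 9.68% in the Sra superfamily, 8.41% in the Srg superfamily and 7.27% in the remaining families. None of these differences was tested. IDR summits lay at 5 genes of the same superfamily (srd-43, srh-16, srh-24, srh-269 and sri-5), 2 of the Sra superfamily (sre-1 and sre-23) and 2 of the Srg superfamily (srg-64 and srt-11). Those of srd-43, srg-64 and srh-269 were at tRNA genes and that of sre-23 at a snoRNA gene. The one closest to a 5′ end was 93 bp upstream of srh-16, with a signal of 76.5. With 0 to 3 IDR genes in a family, no difference between str and the other families is shown.

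**Figure D4:**
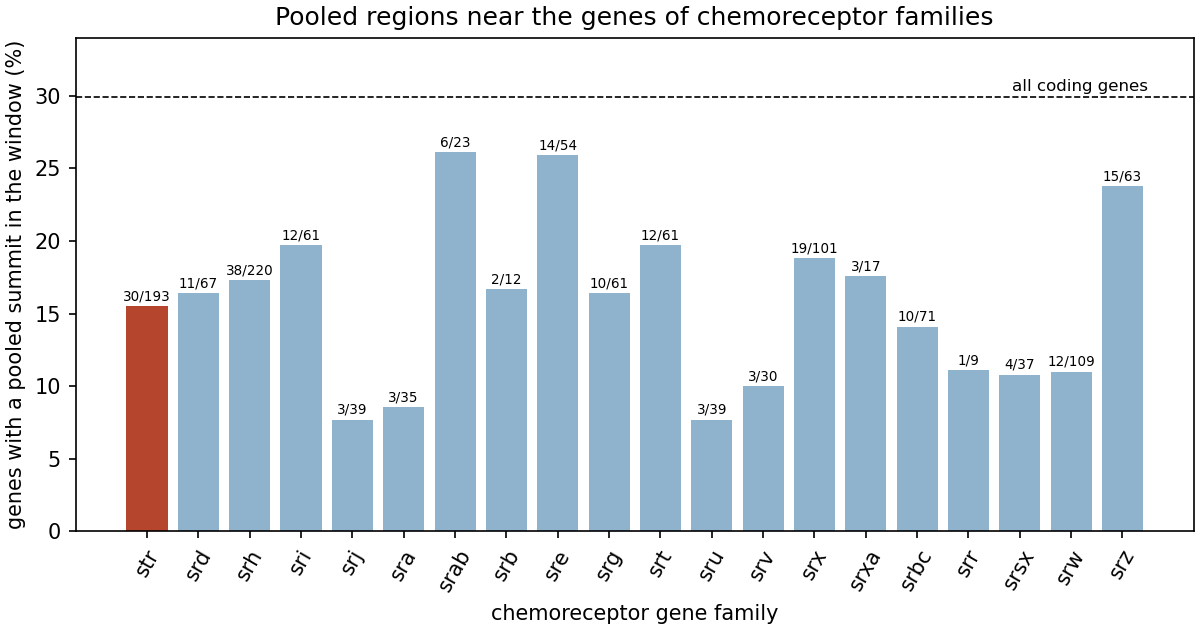
Percentage of genes with a pooled summit in the window in each chemoreceptor family with more than 1 gene, with the genes with a summit out of all genes of the family above the bar and the share of all coding genes as a dashed line. The str family stands at 30 of 193, and every family shown lies below the dashed line at 29.9%.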

How the data were processed

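AHR-1 ChIP-seq was deposited as narrowPeak lists for replicate 1 (22949 regions), replicate 2 (23313), both pooled (13858) and an IDR list (479), all on build ce11 according to the descriptions deposited with the files. The lists before the IDR step were called by the authors from the alignments and include background regions. No source used here names the aligner, caller, IDR threshold or read depth. The ce10 lists, the signal tracks and the control named in the labels were not used here. For every region the deposited lists give the caller's signal and −log10 q, and each list has its own signal scale. Coordinates count from 1 and were joined to Ensembl release 115 and RefSeq WBcel235, whose chromosome lengths hold all regions.

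Summits were given to coding genes with pandas 2.3.3, numpy 2.4.6 and scipy 1.17.1 under Python 3.11.15, and plotted in matplotlib 3.10.9; the assignment was tested on simulated data. Base composition and GCGTG of a window were read at the first listed 5′ end. With 1 group no conditions were compared, and no test was run. The members and gene lists were chosen with earlier results of these data known. The genes named are those with an IDR summit (none), the 15 of highest pooled signal, those at the window edges, and str-1, str-2, str-3, str-44, str-199, str-217 and odr-10; others, such as str-171 and genes of other families, were named after their values were seen. The alternatives were other windows, nearest gene only, region overlap, stronger regions, no small RNA regions, single replicates, a stricter overlap and other definitions of the arms.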

Additional observations from a re-analysis of the deposited data

How the results depend on the processing

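The count of 0 str genes with an IDR summit held under the other windows, assignments and region filters tried, except the window from 3000 bp upstream, which gave 1 gene, str-182. The 30 str genes with a pooled summit became 10 with the window from 500 bp upstream to 200 bp downstream and 16 with the regions above the median signal, and stayed within 1.5 times otherwise. The 24 genes with overlapping regions of both replicates became 5 and 6 under those settings, and counting the summits of 1 replicate alone, without the other, gave 55 to 64. The share of the other genes on the V arms was 12.3% with the narrow window, 37.3% with the wide one, 21.5% for the nearest gene only, 30.7% with any overlap of region and window, 14.9% for regions above the median signal and 29.6% without other chemoreceptor genes. The str shares in the first 5 of these were 5.18%, 22.3%, 13.0%, 16.6% and 8.29%, below the V arms each time. The median signal at marked str genes (33.5) was 31.5 with the narrow window, 33.6 with the wide one and for the nearest gene only, 32.5 with any overlap, 36.5 for regions above the median signal and 33.4 without regions near small RNA genes. No paired analysis was possible because there is 1 group. Read depth is unknown, so weak regions cannot be told from missed ones.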

Other observations

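Inside the bodies of str genes, from 5′ to 3′ end, lay 26 pooled summits, at 22 of the 193 genes. This is 6.97 summits per 100 kb of str gene body, against 15.4 at the other coding genes on the V arms and 13.6 at all coding genes. These counts were not tested, and base composition, gene length and introns differ between the sets. Among str genes with another str gene as a direct neighbour, 17 of 99 had a pooled summit in the window, and among those without one 13 of 94 did.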
